A study of Mus musculus with 9 samples.

Results

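The antioxidant and glutathione genes of hair follicle stem cells were chosen by name: every row of the count tables whose symbol belongs to the glutathione S-transferase, glutathione peroxidase, peroxiredoxin or superoxide dismutase families, plus 16 single genes of the same defence system (Cat, Gclc, Gclm, Gss, Gsr, Txn1, Txn2, Txnrd1, Txnrd2, Nqo1, Hmox1, Srxn1, Nfe2l2, Keap1, Mt1 and Mt2). These are 59 of 35006 gene symbols, and the rule uses names alone, with no measured value in it. Messenger RNA was counted in CD34+ alpha6+ bulge stem cells that had been sorted from C57BL/6J mice, in 5 libraries from mice fed ad libitum (AL) and 4 libraries from mice on dietary restriction (DR). AL mice ate without limit, and DR mice received each day 70% of the amount eaten by AL mice matched for weight and gender; all were housed singly. Each pool of sorted cells held those of 3 mice. The labels give no age, sex, irradiation state or batch, name 2 suppliers and animal houses without saying which library came from which, and do not say whether each library had its own pool, so p-values measure the spread between libraries, which may be partly technical.

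Cells make superoxide and hydrogen peroxide as by-products of respiration. Superoxide dismutases turn superoxide into hydrogen peroxide, which catalase, the glutathione peroxidases and the peroxiredoxins then remove; the peroxidases draw their electrons from glutathione or thioredoxin, and both are recharged with NADPH. Many of these genes answer to the transcription factor Nrf2 (gene Nfe2l2), which binds antioxidant response elements in promoters, while the metallothioneins bind zinc and copper and answer to metals, through metal response elements, and to glucocorticoid hormones.

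The promoters of 4 members are shown because these genes carry the pattern described below. Mt1 and Mt2 are the members with the highest levels per length and both rose under DR, Nfe2l2 encodes the regulator and rose, and Prdx1, a peroxiredoxin, holds the antioxidant core and fell. Sequences are the 250 bases before the transcription start in RefSeq on GRCm38.p6, given 5′ to 3′ on the gene's own strand; the count files themselves were made on mm9, per the submitters' processing notes. Capitals mark the metal response element core (TGCGCNC or TGCACNC, on either strand) in Mt1 and Mt2, and the antioxidant response element core (TGACNNNGC, on either strand) in Nfe2l2 and Prdx1.
Mt1, chr8:94178839-94179088, plus strand: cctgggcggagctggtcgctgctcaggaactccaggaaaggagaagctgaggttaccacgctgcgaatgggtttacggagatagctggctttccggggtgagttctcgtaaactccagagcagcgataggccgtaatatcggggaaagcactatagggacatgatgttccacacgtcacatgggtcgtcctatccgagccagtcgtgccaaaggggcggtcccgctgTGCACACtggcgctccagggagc
Mt2, chr8:94172368-94172617, plus strand: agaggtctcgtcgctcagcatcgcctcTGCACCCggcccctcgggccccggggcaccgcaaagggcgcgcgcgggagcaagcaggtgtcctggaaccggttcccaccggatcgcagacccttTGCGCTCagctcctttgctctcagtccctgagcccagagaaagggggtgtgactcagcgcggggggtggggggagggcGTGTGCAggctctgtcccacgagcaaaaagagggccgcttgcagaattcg
Nfe2l2, chr2:75704664-75704913, minus strand: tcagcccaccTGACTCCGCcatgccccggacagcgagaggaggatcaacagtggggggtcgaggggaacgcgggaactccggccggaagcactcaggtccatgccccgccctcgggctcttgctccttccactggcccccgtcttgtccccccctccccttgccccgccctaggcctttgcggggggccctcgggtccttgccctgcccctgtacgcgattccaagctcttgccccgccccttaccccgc
Prdx1, chr4:116685349-116685598, plus strand: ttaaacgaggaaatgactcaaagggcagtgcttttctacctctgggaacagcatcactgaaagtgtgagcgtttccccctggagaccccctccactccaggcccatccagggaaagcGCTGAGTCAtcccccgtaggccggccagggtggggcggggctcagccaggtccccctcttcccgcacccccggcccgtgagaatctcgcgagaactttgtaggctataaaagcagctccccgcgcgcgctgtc

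Across the 60 RefSeq promoter windows of 47 members (250 bases before to 50 after each start), the antioxidant core was found in 10 windows (16.7%), against 12.4% of all 32817 windows. Its 10 genes were Gclm, Gsta3, Gstm5, Gstm7, Mt2, Nfe2l2, Prdx1, Sod1, Srxn1 and Txnrd1. Of these, Mt2 and Nfe2l2 rose under DR, Prdx1 fell and 7 did not pass the test. The 12 members not searched were Gclc, Gpx2-ps1, Gsr, Gsta4, Gstm2-ps1, Gstt2, Hmox1, Prdx2-rs3, Prdx6, Prdx6-ps1, Prdx6-ps2 and Sod3. The metal core was found in 18 member windows (30%), against 25.7% of all windows. In Gclm, Gsta1 and Gsta2 matches overlap another match. The Mt1 window held 3 matches (first bases at -23, 2 and 20 from the start) and the Mt2 window 4 (at -223, -128, -50 and 4). Those past the RefSeq start lie outside the printed sequences. All positions depend on that start, and no other start of Mt1 or Mt2 was searched. The palindrome core of the glucocorticoid receptor (ACANNNTGT) was found in 1 member window, that of Mt1 (ACATGATGT, first base at position -92 from the start), against 6.85% of all windows. A match shows only that the letters are present.

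Of the 59 members, 49 passed the filter on low counts. Gpx5 and Gpx6 had no read in any library, and Gpx2-ps1, Gpx7, Gsta1, Gsta2, Gstm3, Gstp2, Gstt4 and Prdx2-rs3, with 2 to 80 reads summed over the 9 libraries, were removed by the filter. Members took 0.287% to 0.374% of gene counts in AL libraries and 0.353% to 0.518% in DR libraries. These ranges overlap, because DR replicate 2 lay among the AL libraries. Mt1 and Mt2 weighed most in the DR sums. Mt1 had 9225 to 20142 counts in AL and 26243 to 45699 in DR libraries. Mt2 had 7484 to 17992 counts in AL and 22148 to 38643 in DR libraries. The share without these genes was not tested, so the ranges do not describe the other members. Levels are CPM (counts scaled to a common library total, after TMM), and log2 fold changes are DR against AL from edgeR's quasi-likelihood test, with a standard error (SE) and a Benjamini-Hochberg adjusted p over all 15447 genes tested; a gene is said to have risen or fallen where that p is below 0.05.

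The system did not move as a block. Both metallothioneins, Gstm1, the rate-limiting glutathione synthesis subunit Gclc, the mitochondrial thioredoxin reductase Txnrd2, heme oxygenase Hmox1 and Nfe2l2 rose under DR. So did Gpx3, Gpx4, Gstt1 and the pseudogene row Gstm2-ps1. The cytosolic thioredoxin Txn1, the peroxiredoxins Prdx1, Prdx2 and Prdx4, and Gstm4, Gstm6, Gstp1, Gstz1 and Gpx8 fell. Gpx2, Txn2 and the quinone reductase Nqo1 also fell. The superoxide dismutases and catalase did not pass the test. In all, 23 of 49 members passed, or 46.9%, where 40.7% of all genes tested passed. Of these, 11 were higher (19% of all genes were) and 12 lower (21.7% of all genes were). The median log2 fold change was -0.10 over members and -0.02 over all genes tested. A set of 7 members (14.3%) passed with a change of at least 2-fold, against 11.5% of all genes, and in 16 members (32.7%) AL and DR libraries did not overlap, against 32.9% of all genes. These shares were near those of all genes, so the counts do not set the members apart from other genes. In bulk RNA, fewer cells of a kind and less RNA per cell cannot be told apart.

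**Figure D1:**
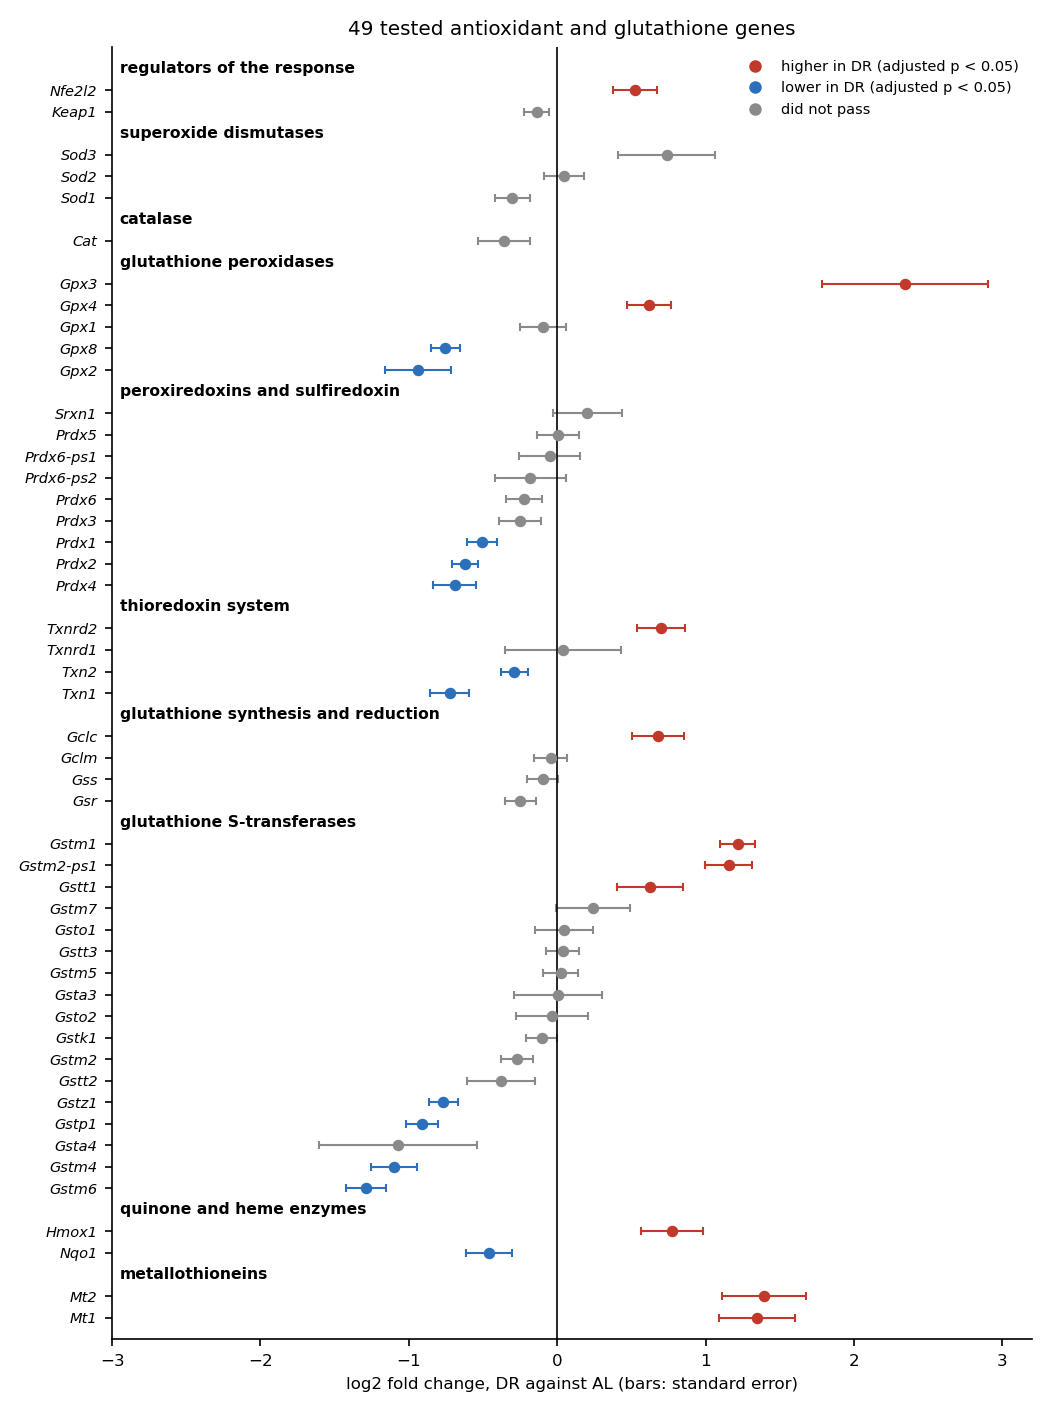
Log2 fold change of DR against AL (x axis) for the 49 tested members, grouped by role (y axis), with the SE as a bar; colours show the call at adjusted p below 0.05. The metallothioneins, Gstm1 and Gpx3 lie farthest to the right and Gstm6 and Gstm4 are the called members farthest to the left, while 26 members were not called.

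Libraries held 26119459 to 33559312 gene counts, with 19486 to 20796 genes detected. Markers of the sorted type were detected in every library, but their levels were not equal between the diets. The summed level of 15 bulge markers was 41197 to 63120 CPM in AL and 34423 to 37627 CPM in DR libraries, without overlap. Of these 15 markers, 7 were lower and 2 higher under DR (60% called, where 40.7% of all genes were called and 21.7% were lower). Itga6 was at 449 ± 44.9 and 412 ± 11.8 CPM (SD, n = 5 and n = 4) and did not pass (-0.12, adjusted p = 0.34, edgeR). Cd34 fell from 1083 ± 579 to 479 ± 102 CPM (-1.18, SE 0.33, adjusted p = 0.016, edgeR), and its groups overlapped. Dividing-cell markers fell in 14 of 14 cases, from summed levels of 108 to 795 CPM in AL to 14.7 to 42.9 CPM in DR libraries. Fibroblast markers summed to 86.0 to 142 CPM in AL and 23.6 to 45.6 CPM in DR libraries. Endothelial and perivascular markers summed to 546 to 708 CPM in AL and 414 to 478 CPM in DR libraries. Of these, 1 of 6 tested passed and was lower. Immune markers, 12 of 13 found and none at 0 throughout, summed to 58.4 CPM in AL replicate 1 and 3.69 to 12.6 CPM in the other AL libraries, and to 76.6, 55.8, 13.6 and 20.3 CPM in DR replicates 1 to 4. Cd74, the immune marker with the highest level, did not pass (1.12, SE 0.77, adjusted p = 0.27). The part of any of these in the members' changes was not tested, except where a value is given below.

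Nfe2l2, the gene of Nrf2, was at 101.1, 103.5, 108, 158 and 121 CPM in AL replicates 1 to 5 and at 181, 132, 187 and 179.8 CPM in DR replicates 1 to 4. The groups met at one point, since AL replicate 4 lay above DR replicate 2, the low library of its group. The mean rose, from 118 ± 23.5 to 170 ± 25.4 CPM (0.52 on the log2 scale, SE 0.15, adjusted p = 0.017, edgeR). Keap1, the adaptor that hands Nrf2 to degradation, was at 60.6, 56.5, 58.3, 50.2 and 63.5 CPM in AL and 50.1, 51.7, 56.6 and 51.8 CPM in DR libraries. Its groups overlapped, and the difference did not pass (-0.14, SE 0.08, adjusted p = 0.21).

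Among other genes that control Nrf2, 5 of 17 tested were higher and 2 lower (41.2%, close to the 40.7% of all genes, median 0.15). Cul3, the scaffold of the ligase that Keap1 serves, rose from 134 ± 8.61 to 183 ± 23.2 CPM (0.45, SE 0.10, adjusted p = 0.0041). Trim21, another ubiquitin ligase, rose (0.68, adjusted p = 0.0022). Btrc, of the Keap1-independent degradation route, and Park7, a redox-sensitive protein that stabilises Nrf2, fell (-0.45, adjusted p = 0.0027 and -0.58, adjusted p = 0.0014, edgeR). Of 27 other textbook Nrf2 targets tested, 5 were higher and 5 lower (37.0%, below the 40.7% of all genes, median 0.14). The efflux pumps Abcc3 (-1.29) and Abcc5 (-0.63) were lower and aldehyde oxidase Aox1 (1.72) was higher; Tbxas1, thromboxane synthase, was higher (1.93) from 3 to 26 reads per library. Without DR replicates 1 and 2 the Aox1 value was 1.13 (adjusted p = 0.020).

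Superoxide is handled by the dismutases, whose 3 members did not pass in edgeR, DESeq2 or limma-voom; 2 of them, Sod1 and Sod3, had an unadjusted p below 0.05 in edgeR (0.028 and 0.046). Sod1, the cytosolic copper-zinc dismutase, was at 59.3, 63.9, 74.1, 79.0 and 81.6 CPM in AL and 56.2, 51.6, 55.2 and 69.2 CPM in DR libraries. Only DR replicate 4 reached into the AL range, yet the difference missed the threshold (-0.30, SE 0.12, adjusted p = 0.065). It passed under upper-quartile scaling (adjusted p = 0.024), under scaling by library size (0.015), without AL replicate 1 (0.032) and without DR replicate 4 (0.028). Sod2, the mitochondrial manganese enzyme, was at 22.7, 23.4, 26.5, 23.4 and 26.8 CPM in AL and 19.4, 22.3, 30.7 and 29.1 CPM in DR libraries. The DR libraries spanned the whole AL range (0.05, SE 0.14, adjusted p = 0.81). Sod3, the extracellular enzyme, was low, at 2.95 ± 1.28 and 4.93 ± 1.61 CPM (0.74, SE 0.33, adjusted p = 0.095; 0.049 without AL replicate 1).

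Cat, the peroxisomal catalase, was at 145, 113, 143, 135 and 232 CPM in AL and 118, 130.2, 118 and 114 CPM in DR libraries. AL replicate 5 stood far above every other library, and all DR libraries lay within the AL range. The difference did not pass (-0.36, SE 0.18, adjusted p = 0.13), nor without AL replicate 5 (adjusted p = 0.22).

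Of the glutathione peroxidases, Gpx1, the general cytosolic form, was far above the others per length, at 283 CPM per kilobase in AL libraries, against 27.0 for Gpx8, 15.3 for Gpx4, 5.77 for Gpx2 and 0.231 for Gpx3. Gpx1 was at 249.97, 239, 318, 336 and 374 CPM in AL and 309, 218, 302 and 307 CPM in DR libraries. DR replicate 2 was the lowest of all 9, the other DR libraries lay inside the AL range, and the difference did not pass (-0.10, SE 0.16, adjusted p = 0.66). Gpx4, which reduces lipid peroxides in membranes and guards against ferroptosis, was at 11.8, 14.5, 15.1, 17.0 and 14.98 CPM in AL and 21.4, 16.9, 26.8 and 25.1 CPM in DR libraries. Apart from AL replicate 4 and DR replicate 2, which were level, the groups were separate, and Gpx4 rose (0.62, SE 0.15, adjusted p = 0.0067). Of the 51-base windows in the Gpx4 transcript, 68.7% also occur in transcripts of other genes, chiefly a pseudogene, so its counts may hold or miss reads.

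Gpx8, a peroxidase of the endoplasmic reticulum, was at 25.5, 26.6, 29.3, 27.3 and 32.1 CPM in AL and 15.5, 18.0, 15.3 and 18.0 CPM in DR libraries. All DR libraries lay well below all AL libraries (-0.75, SE 0.10, adjusted p = 0.00027). Gpx2, an epithelial form, was at 7.91, 5.39, 7.41, 5.63 and 4.44 CPM in AL and 4.17, 2.39, 3.34 and 2.93 CPM in DR libraries. The groups did not overlap, by a small margin, and Gpx2 fell (-0.94, SE 0.22, adjusted p = 0.0065). Gpx3, the secreted form, had only 6 to 108 reads per library: 0.217, 0.245, 0.201, 0.686 and 0.489 CPM in AL and 3.88, 2.03, 0.940 and 0.613 CPM in DR libraries. It rose (2.34, SE 0.56, adjusted p = 0.0067), but DR replicate 4 lay inside the AL range, and the 2 highest libraries were those with the most immune-marker RNA in the DR group. Without DR replicates 1 and 2 the Gpx3 value was 1.08 and no longer passed (adjusted p = 0.13). As these were its highest libraries, a lower value was bound to follow, and nothing is concluded from this loss.

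In the thioredoxin system 1 of 4 tested members rose and 2 fell, or 75.0% called, and of 9 tested peroxiredoxin and sulfiredoxin rows 3 fell, or 33.3%, where 40.7% of all genes were called and 21.7% fell. Txn1, the cytosolic thioredoxin that returns electrons to peroxiredoxins, was at 158, 129.6, 161, 174 and 219.9 CPM in AL and 102.3, 101.5, 102.2 and 102.3 CPM in DR libraries. The DR libraries were almost identical and all below the lowest AL library (169 ± 33.0 against 102 ± 0.394 CPM; -0.72, SE 0.13, adjusted p = 0.0015). With 2720 to 3392 Txn1 reads per DR library, counting alone gives a wider spread, so nothing is concluded from the near identity. Txn2, the mitochondrial thioredoxin, fell (81.0 ± 7.11 to 66.4 ± 5.47 CPM; -0.29, SE 0.09, adjusted p = 0.024), its groups overlapped, and it no longer passed without AL replicate 3 (adjusted p = 0.055) or without DR replicate 1 (0.054), 2 (0.074) or 4 (0.059).

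Prdx1, a cytosolic peroxiredoxin, was at 147, 151, 172, 187 and 169 CPM in AL and 131, 104, 115 and 114 CPM in DR libraries. Its groups did not overlap, and it fell (165 ± 16.3 to 116 ± 11.2 CPM; -0.51, SE 0.10, adjusted p = 0.0024). Prdx4, the peroxiredoxin of the endoplasmic reticulum, was at 20.0, 28.7, 25.6, 25.5 and 20.4 CPM in AL and 16.8, 12.9, 12.6 and 17.3 CPM in DR libraries. Every DR library was below every AL library (-0.69, SE 0.15, adjusted p = 0.0035). Prdx2, another cytosolic form, fell from 97.7 ± 6.37 to 63.5 ± 6.46 CPM without overlap (-0.62, SE 0.09, adjusted p = 0.00040). The other tested peroxiredoxins did not pass: the mitochondrial Prdx3 (-0.25; it passed without DR replicate 3, adjusted p = 0.047), Prdx5 (0.01), Prdx6 (-0.23; it passed under library-size scaling, adjusted p = 0.044) and the pseudogene rows Prdx6-ps1 (-0.05) and Prdx6-ps2 (-0.18). Srxn1, the sulfiredoxin that repairs overoxidised peroxiredoxins, did not pass either (0.20, SE 0.23); DR replicate 1 was at 29.0 CPM and the other DR libraries at 12.1 to 17.9 CPM.

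Thioredoxin reductases recharge thioredoxin with NADPH. Txnrd2, the mitochondrial enzyme, was at 14.3, 12.6, 15.1, 13.0 and 18.3 CPM in AL and 31.9, 20.4, 19.4 and 23.6 CPM in DR libraries. Every DR library lay above every AL library, DR replicate 1 most, and Txnrd2 rose (0.70, SE 0.16, adjusted p = 0.0058). Without AL replicate 1 and DR replicates 1 and 2, the libraries rich in immune-marker RNA, the Txnrd2 value was 0.55 (adjusted p = 0.059). Txnrd1, the cytosolic enzyme, was at 59.1, 88.5, 67.6, 149 and 37.5 CPM in AL and 134, 40.3, 71.6 and 84.2 CPM in DR libraries. Libraries of either diet ranged widely and fully overlapped (0.04, SE 0.39, adjusted p = 0.95), so that a change of Txnrd1 was not detectable at this spread.

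**Figure D2:**
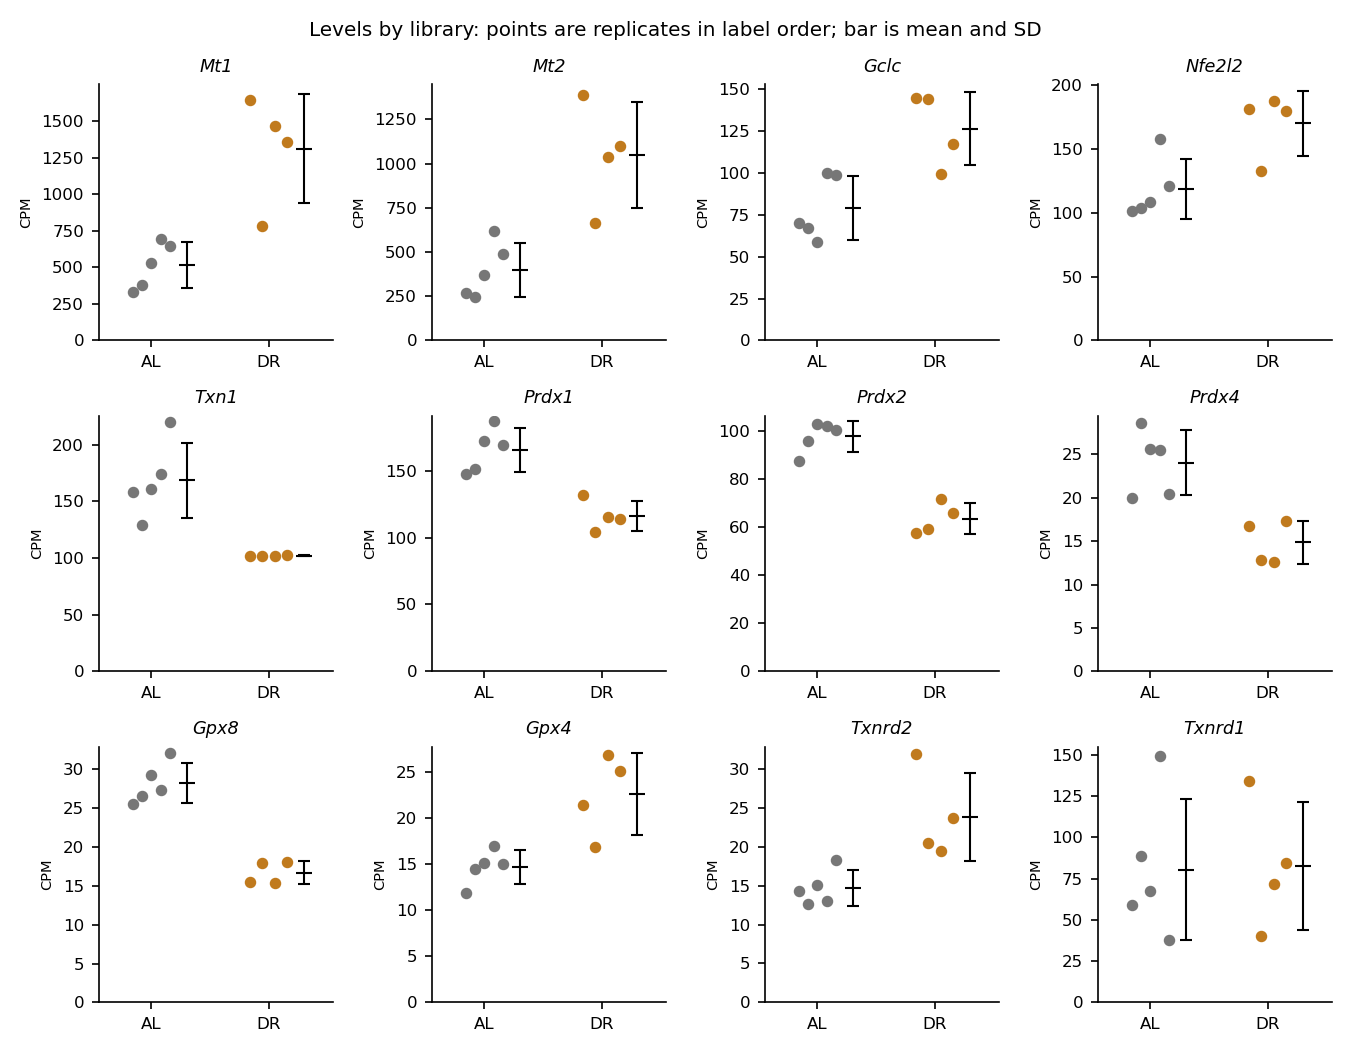
Level in CPM (y axis, from 0) of 12 members in each library by diet (x axis); points are replicates in label order and the bar beside them is the mean and SD. The 4 DR libraries of Txn1 lie between 101.5 and 102.3 CPM, closer together than read counting alone gives. Txnrd1 ranges from 37.5 to 149 CPM within the AL group alone.

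Other thioredoxin-fold and repair genes passed in 14 of 22 cases (63.6%, where 40.7% of all genes passed): 2 were higher and 12 lower (median -0.32). Pdia4 and Pdia6, which form disulfide bonds in the endoplasmic reticulum, fell (-1.14, adjusted p = 6.2e-06 and -0.91, adjusted p = 2.1e-05, edgeR), as did Txndc5 of the same family (-0.55). Txnip, the inhibitor of thioredoxin, went the other way (3.12, SE 0.17). Of 19 selenoprotein and selenium genes tested, 3 were higher and 9 lower (63.2%, median -0.27). Sepp1, the selenium carrier, rose from 163 ± 24.5 to 316 ± 19.8 CPM (0.95, SE 0.12, adjusted p = 0.00018). Selm (-1.003), Sepn1 (-0.55) and 2700094K13Rik, the file's symbol for Selh (-1.22), fell. Of 17 genes of NADPH supply, 3 were higher and 6 lower (52.9%, median -0.19). Nnt, the mitochondrial transhydrogenase, fell from 33.5 ± 3.38 to 13.9 ± 2.66 CPM (-1.26, SE 0.14, adjusted p = 8.7e-05). The labels do not tie libraries to a supplier, so a difference in Nnt between suppliers of mice was not tested. Taldo1 (-0.997) and Tkt (-0.59) of the pentose phosphate pathway fell, and Mthfd1, a folate enzyme, rose (0.94).

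Glutathione is built from glutamate, cysteine and glycine, and its first step is catalysed by a dimer of Gclc and Gclm. Gclc, the catalytic subunit, was at 70.2, 67.0, 58.9, 100.1 and 99.0 CPM in AL and 145, 144, 99.6 and 117 CPM in DR libraries. DR replicate 3 was level with AL replicates 4 and 5 and the others were above, and Gclc rose (79.0 ± 19.2 to 126 ± 21.9 CPM; 0.68, SE 0.18, adjusted p = 0.011). Without DR replicates 1 and 2, the highest libraries, the Gclc value was 0.46 and no longer passed (adjusted p = 0.12). Leaving out the highest libraries was bound to lower the value, and fewer were tested, so nothing is concluded from this loss. Gclm, the modifier subunit, was at 66.9, 72.5, 84.7, 64.8 and 56.2 CPM in AL and 72.1, 68.5, 65.2 and 62.2 CPM in DR libraries. All DR libraries lay inside the AL range (-0.04, SE 0.11, adjusted p = 0.78). Gss, the second enzyme, did not pass (-0.10, SE 0.11, adjusted p = 0.49).

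Gsr, the reductase that recycles oxidised glutathione, was at 13.5, 14.3, 15.95, 15.3 and 12.8 CPM in AL and 11.9, 12.1, 12.1 and 12.3 CPM in DR libraries. The groups did not overlap, but the difference was small and missed the threshold (-0.25, SE 0.10, adjusted p = 0.076). It passed under upper-quartile scaling (0.038) and without AL replicate 5 (0.049).

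Genes that feed or break down glutathione moved in both directions, with 5 of 24 higher and 5 lower (41.7%, close to the 40.7% of all genes, median 0.06). Glul, which makes glutamine from glutamate, rose (4.40, SE 0.17, adjusted p = 1.8e-07). Its reads may be exchanged with a pseudogene, which was not checked here. Dpep1, a dipeptidase that cleaves the breakdown product cysteinylglycine, rose from 0.334 ± 0.147 to 12.0 ± 2.75 CPM (5.15, SE 0.29, adjusted p = 1.8e-06). Cth, which makes cysteine from cystathionine, was at 6.68, 6.69, 7.44, 9.68 and 7.23 CPM in AL and 25.8, 21.3, 21.2 and 26.0 CPM in DR libraries. Every DR library had more Cth than every AL library (1.64, SE 0.14, adjusted p = 1.9e-05). Slc25a39, the mitochondrial glutathione carrier, fell from 56.2 ± 6.43 to 30.3 ± 2.72 CPM (-0.89, SE 0.10, adjusted p = 0.00013).

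The glutathione S-transferases attach glutathione to reactive compounds, and their 17 tested rows split into 3 higher, 4 lower and 10 not called (41.2% called, close to the 40.7% of all genes). The largest differences lay within the mu class, whose promoters lie together on chromosome 3, between 107895604 and 108045109 on GRCm38.p6. Gstm1 was at 42.7, 48.1, 45.05, 55.5 and 51.4 CPM in AL and 131, 91.3, 121 and 108 CPM in DR libraries. The lowest DR library was far above the highest AL library, and Gstm1 rose 2.32-fold (1.22, SE 0.12, adjusted p = 4.1e-05). Gstm2-ps1, a pseudogene row, also rose (8.71 ± 1.47 to 19.4 ± 3.23 CPM; 1.16, SE 0.16, adjusted p = 0.00031); 34.6% of its 51-base windows also occur in Gstm1, so the rows may exchange reads.

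Gstm6 was at 11.4, 10.3, 11.6, 11.1 and 13.3 CPM in AL and 5.43, 4.22, 4.92 and 4.32 CPM in DR libraries. No DR library came near the AL range, and Gstm6 fell 2.44-fold (-1.29, SE 0.14, adjusted p = 7.1e-05). Gstm4 was at 11.9, 13.9, 14.7, 9.99 and 12.5 CPM in AL and 7.19, 5.83, 5.30 and 5.22 CPM in DR libraries. It also fell without overlap (-1.10, SE 0.16, adjusted p = 0.00037), and none of its windows is shared with another gene. Gstm5, the mu-class gene with the highest level per length (70.5 CPM per kilobase in AL), was at 66.6 ± 10.7 and 67.7 ± 6.05 CPM and did not pass (0.02, SE 0.12). Gstm7 (0.24, SE 0.25) and Gstm2 (-0.27, SE 0.11, adjusted p = 0.067) did not pass, the latter passing without DR replicate 1 (0.028) and under upper-quartile (0.026) and library-size scaling (0.021).

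**Figure D3:**
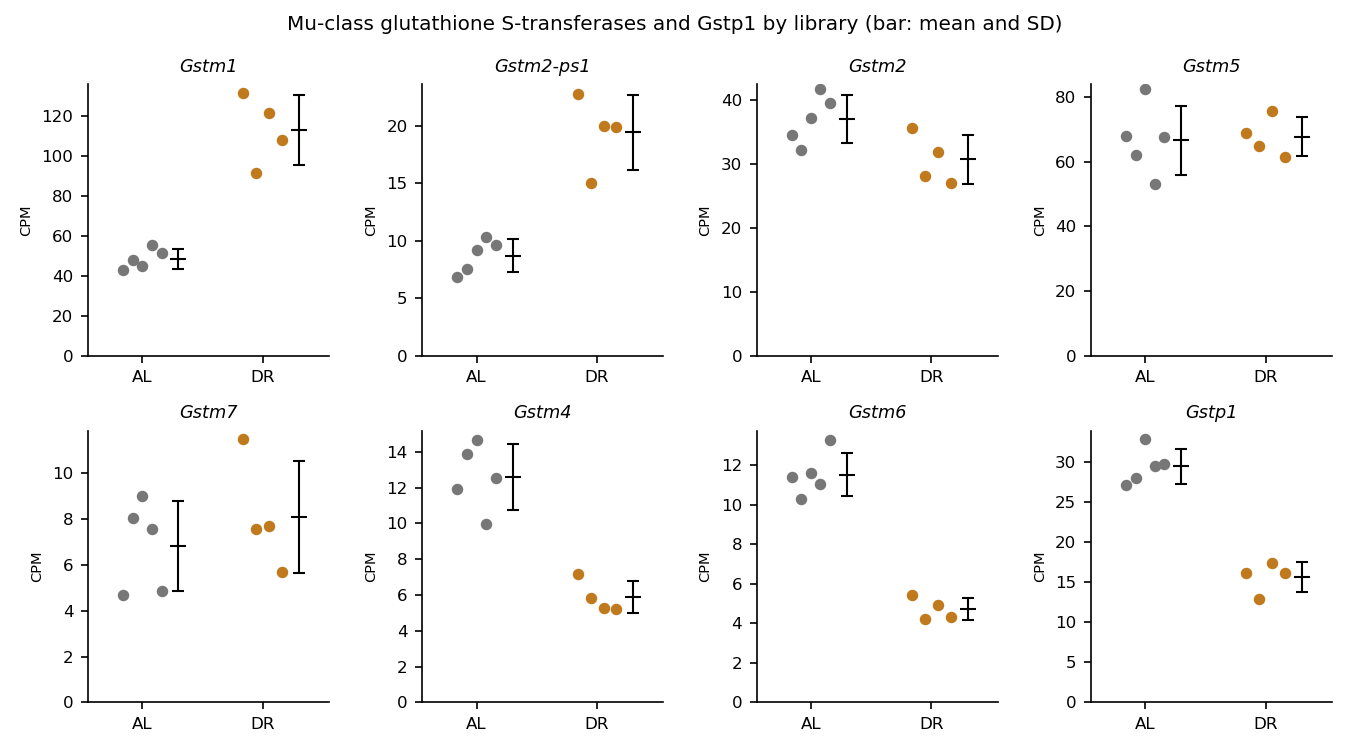
Level in CPM (y axis, from 0) of 7 mu-class rows and Gstp1 in each library by diet (x axis); points are replicates and the bar is the mean and SD. Gstm1 and Gstm2-ps1 lie higher in all 4 DR libraries, Gstm4, Gstm6 and Gstp1 lower, and Gstm2, Gstm5 and Gstm7 overlap between the diets.

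Outside the mu class, Gstp1, the pi-class enzyme, was at 27.2, 28.1, 32.9, 29.5 and 29.8 CPM in AL and 16.2, 12.9, 17.4 and 16.2 CPM in DR libraries. All DR libraries were lower (-0.91, SE 0.11, adjusted p = 0.00012); Gstp2, which shares 62.1% of the windows of Gstp1, was removed by the filter. Gstz1, which also works in tyrosine breakdown, was at 28.6, 33.3, 32.3, 28.7 and 32.1 CPM in AL and 18.8, 18.2, 15.6 and 20.1 CPM in DR libraries. It fell without overlap (-0.77, SE 0.10, adjusted p = 0.00020). Gstt1 rose by little (3.01 ± 0.661 to 4.64 ± 1.25 CPM; 0.63, SE 0.22, adjusted p = 0.043), its groups overlapped, and the call was lost in 11 of 22 alternatives, among them leaving out AL replicate 1, 2 or 4 (adjusted p = 0.089, 0.085 and 0.084) or DR replicate 1, 3 or 4 (0.051, 0.14 and 0.079). Gsto1, the omega-class gene with the highest level per length of all transferases (112 CPM per kilobase in AL), did not pass (0.05, SE 0.19), nor did Gsta3, Gsta4, Gstk1, Gsto2, Gstt2 and Gstt3. Gsta4 was at 0.513 ± 0.307 and 0.237 ± 0.116 CPM (-1.07, SE 0.53, adjusted p = 0.13; 0.028 without AL replicate 5).

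Of 14 related microsomal transferases, glutaredoxins and chloride-channel relatives tested, 4 passed and were lower (28.6%, median -0.14). Of all genes tested, 40.7% passed and 21.7% were lower. Gstcd (-1.12, SE 0.14) and Clic1 (-0.89, SE 0.15) fell without overlap. Glo1, which detoxifies methylglyoxal with glutathione (-0.32, adjusted p = 0.038), and Glrx5, of iron-sulfur cluster assembly (-0.36, adjusted p = 0.047), were near the edge and each lost its call in 12 of 22 alternatives; without DR replicates 1 and 2 they were at -0.20 and -0.20.

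Hmox1, which breaks heme down to biliverdin, iron and carbon monoxide, was at 16.4, 14.1, 17.3, 21.7 and 12.0 CPM in AL and 40.3, 20.0, 24.6 and 26.6 CPM in DR libraries. DR replicate 1 was highest by far, AL replicate 4 lay above DR replicate 2, and Hmox1 rose (16.3 ± 3.65 to 27.9 ± 8.71 CPM; 0.77, SE 0.21, adjusted p = 0.013). Without AL replicate 1 and DR replicates 1 and 2 the Hmox1 value was 0.66 and just missed the threshold (adjusted p = 0.061). Nqo1, the quinone reductase often used as a readout of Nrf2, was at 26.0, 17.7, 26.1, 25.1 and 32.5 CPM in AL and 21.001, 19.4, 17.6 and 16.03 CPM in DR libraries. AL replicate 2 lay among the DR libraries, and Nqo1 fell (-0.46, SE 0.16, adjusted p = 0.037). The Nqo1 call was lost in 12 of 22 alternatives, including leaving out AL replicate 1, 3, 4 or 5 (adjusted p = 0.064, 0.067, 0.053 and 0.067) or DR replicate 2, 3 or 4 (0.060, 0.099 and 0.10), and with the replicate number as a block (0.087).

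**Figure D4:**
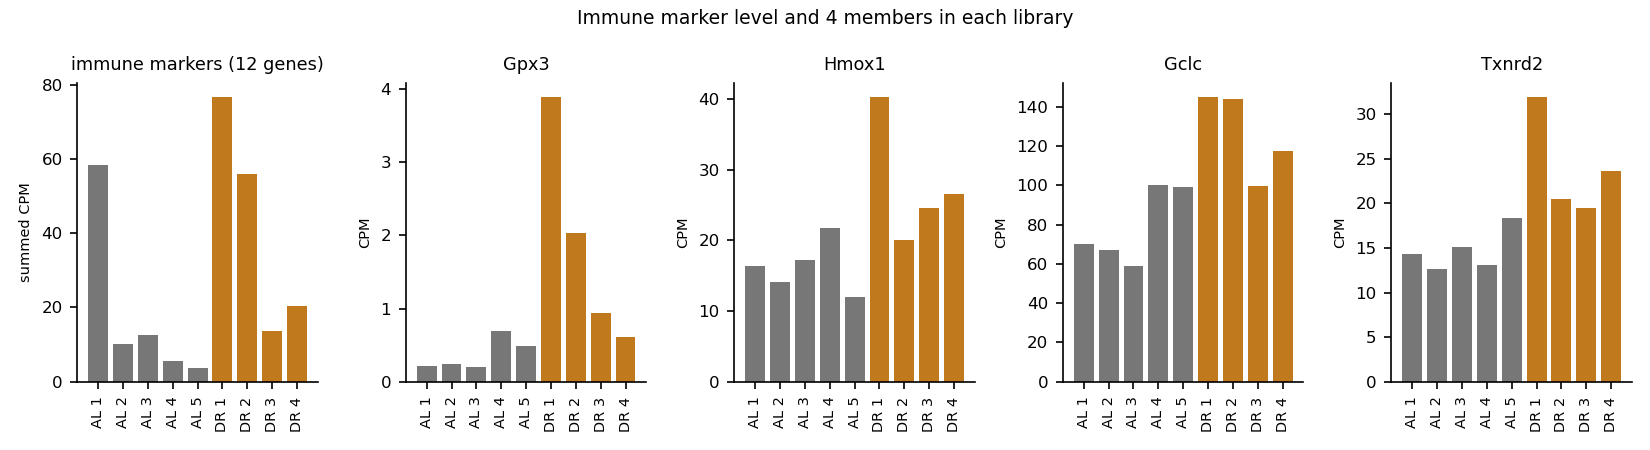
Bars (y axis in CPM, from 0) give, for each library (x axis), the summed level of 12 immune-cell markers and the levels of Gpx3, Hmox1, Gclc and Txnrd2. AL replicate 1 has 58.4 CPM of immune markers with Gpx3 at 0.217 CPM, while DR replicate 1 has 76.6 CPM of immune markers with the highest level of all 4 genes.

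In the plot of immune markers beside 4 members, these 2 kinds of value moved together only in part. Gclc was highest in DR replicates 1 and 2 (145 and 144 CPM). In DR replicate 2, however, Hmox1 was the lowest of its group (20.0 CPM), and Txnrd2 (20.4 CPM) lay below replicate 4 (23.6 CPM). Among AL libraries, Gclc was highest in replicates 4 and 5 (100.1 and 99.0 CPM), where immune markers summed to 5.70 and 3.69 CPM. In the DR group, Gpx3 was highest in replicates 1 and 2, which also held the most immune-marker RNA; in the AL group, replicate 1, at 58.4 CPM between DR replicates 1 and 2, had Gpx3, Hmox1, Gclc and Txnrd2 within the range of the other AL libraries. Ptprc, the pan-leukocyte marker, had a mean of 0.304 ± 0.208 CPM under AL and of 0.558 ± 0.458 CPM under DR. The part of immune-cell RNA in the rise of these 4 members was not tested beyond the values without those libraries.

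Mt1 was at 333, 382, 527, 691 and 647 CPM in AL and 1643, 785, 1464 and 1353 CPM in DR libraries. The lowest DR library, replicate 2, still lay above the highest AL library, and the mean rose 2.54-fold, from 516 ± 158 to 1312 ± 371 CPM (1.35, SE 0.26, adjusted p = 0.0020). Mt2, its neighbour on chromosome 8, was at 270.3, 248, 370.1, 618 and 487 CPM in AL and 1390, 663, 1037 and 1099 CPM in DR libraries. The order of the DR libraries was nearly that of Mt1, again with no overlap, and Mt2 rose 2.63-fold (1.39, SE 0.28, adjusted p = 0.0028). Per length, Mt1 (940 ± 287 CPM per kilobase) and Mt2 (780 ± 303) were the highest members in AL libraries, followed by Gpx1 (283), Txn1 (160.5), Gsto1 (112) and Sod1 (112); the ranges of Mt1 and Mt2 overlap, as do those of Gsto1 and Sod1. Of the Mt2 windows 44.9% also occur in another gene model, while those of Mt1 occur nowhere else. Without AL replicate 1 and DR replicates 1 and 2 the values were 1.33 for Mt1 (adjusted p = 0.0073) and 1.31 for Mt2 (0.019).

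Of 25 other genes of copper, zinc and iron handling tested, 7 were higher and 1 lower (32.0%, below the 40.7% of all genes; median 0.14). Slc39a10, a zinc importer, was at 87.2, 81.5, 71.2, 98.7 and 100.1 CPM in AL and 37.6, 41.0, 32.4 and 32.2 CPM in DR libraries. It was lower in every DR library (-1.29, SE 0.12, adjusted p = 3.8e-05). Slc39a8, which also carries zinc and manganese into cells, rose (0.89, SE 0.22, adjusted p = 0.0078). Slc40a1, the iron exporter ferroportin, rose from 13.7 ± 3.39 to 41.3 ± 3.38 CPM (1.60, SE 0.18, adjusted p = 0.00011), and the copper pump Atp7a rose from 20.6 ± 2.66 to 29.5 ± 0.951 CPM (0.52, SE 0.10, adjusted p = 0.0024).

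Of 16 tested genes listed with the producers of superoxide and hydrogen peroxide, 1 was higher and 5 lower (37.5% called, against 40.7% of all genes; median -0.30). Duox1, a hydrogen peroxide-producing oxidase of epithelia, fell (-0.97, SE 0.22, adjusted p = 0.0047). The others named by smallest p are not producers: Ucp2, a mitochondrial carrier, fell (-1.82, SE 0.33, adjusted p = 0.0016), and of the sestrins, stress proteins that restrain mTORC1, Sesn1 rose (1.499, SE 0.12, adjusted p = 1.4e-05) and Sesn3 fell (-0.89, SE 0.17, adjusted p = 0.0024).

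**Figure D5:**
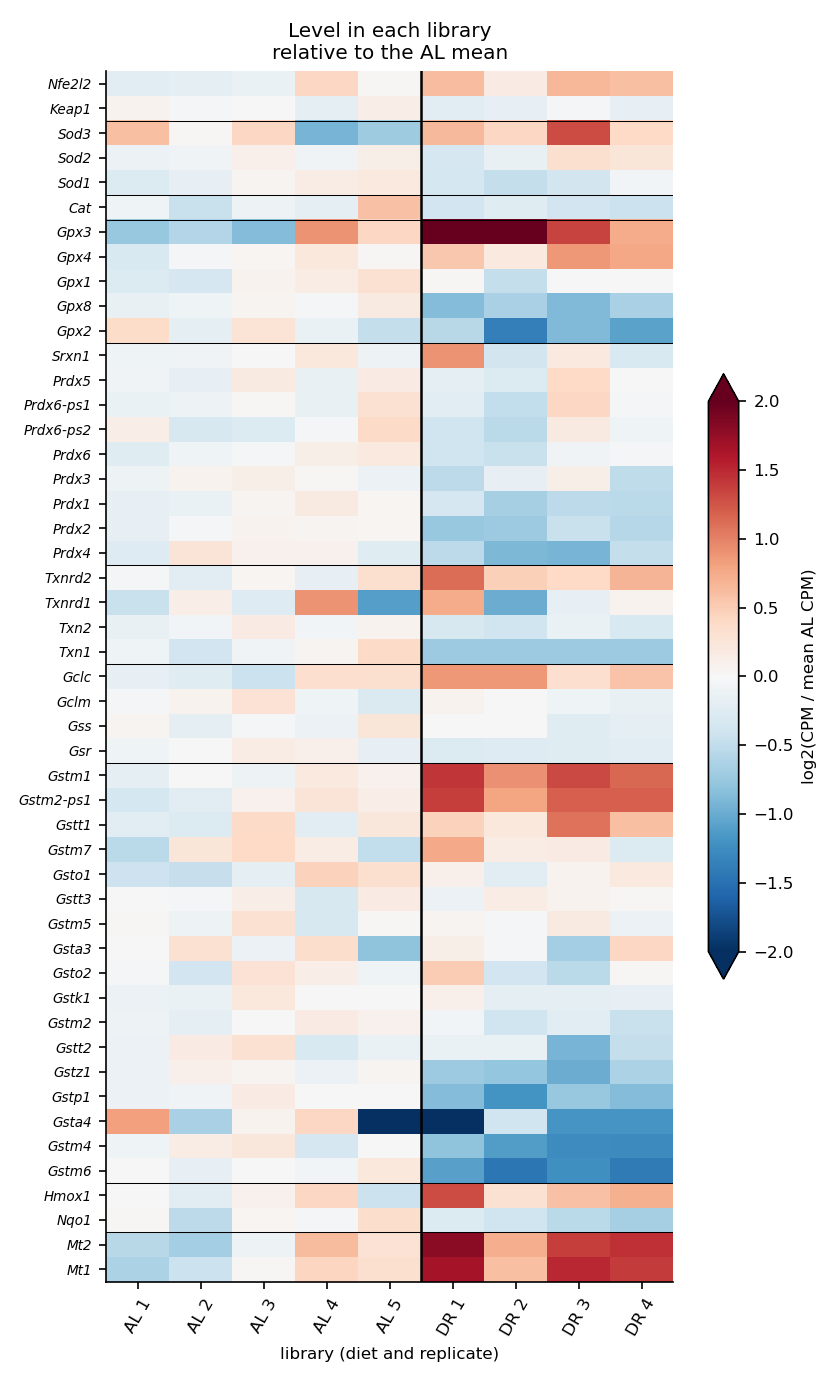
Colour gives the log2 ratio of each library's CPM to the AL mean for the 49 tested members (y axis, ordered by role) in the 9 libraries (x axis), with colours ending at -2 and 2. Mt1, Mt2 and Gstm1 are red in all 4 DR columns, Txn1, Gstp1, Gstz1 and Gstm6 are blue in all 4, and DR replicate 2 is paler than its group for Nfe2l2, Mt1 and Gpx4.

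The heat map of all tested members shows that the DR libraries were not equal: DR replicate 2 had the lowest DR level of Mt1, Mt2, Gstm1, Nfe2l2, Gpx1, Gpx4 and Hmox1, and DR replicate 1 the highest of Mt1, Mt2, Gstm1, Hmox1, Txnrd1, Txnrd2 and Srxn1. Leaving out either replicate alone ended none of the calls of Mt1, Mt2, Gstm1, Nfe2l2, Gpx4, Hmox1 or Txnrd2.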

How the data were processed

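RNA of sorted CD34+ alpha6+ cells was sequenced as single reads of 51 cycles from TruSeq v2 libraries, 5 AL and 4 DR. The authors deposited whole-number read counts per gene symbol, not normalized; the reads were checked with FastQC 0.11.5, aligned to mm9 with Bowtie and TopHat2 2.1.0 and counted with HTSeq 0.11.2, going by the names listed per the submitters' processing notes. For annotation, strand setting and multiply mapped reads nothing is given in the sources used here. The kit does not mark strand, so reads of a gene and of an overlapping antisense gene cannot be told apart. The 6 lines that name no gene held 25.9% to 30.7% of reads and were left out. Counts were tested in R 4.3.3 with edgeR 4.0.16 (filterByExpr, TMM, quasi-likelihood fit on diet alone, Benjamini-Hochberg, 0.05). This step was checked on simulated counts of independent libraries in which far fewer genes changed than here. The check therefore does not cover widespread change or partly technical replicates. SEs are those implied by the F statistic. Within groups, the 16 library pairs had a chi-square per degree of freedom of 24.6 to 110, so none was a copy. Alternatives were other scalings and filters, DESeq2 1.42.0, limma 3.58.1 voom, robust dispersion, a replicate block, a 0.01 threshold and leaving out libraries. Levels per length and shared 51-base windows used GENCODE M21 principal transcripts (58 of 59 members matched), and promoters came from RefSeq on GRCm38.p6.

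Members and lists were chosen with earlier results of these data known. Values in full are given for up to 8 called members per direction with the largest change (mean log2 CPM 2 or above), and for 17 members of central role whatever their result. Up to 4 called genes with the smallest p are named per list of related genes. Prdx2, Txn2, Gpx3, Gstt1, Sod3 and Cd34 were described beyond that rule after their values were seen.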

Additional observations from a re-analysis of the deposited data

Results flagged for a closer look

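In 98 groups of libraries (each tested member in each diet), 5 had a library that lay far from the others by Dixon's criterion, and chance gives about 1 in 20 groups. In AL replicate 5, Cat was at 231.7 CPM, against 113 to 145 CPM in the other AL libraries. In DR replicate 2, Gpx1 was at 218 CPM against 302 to 309 CPM in the other DR libraries, and Nfe2l2 was at 132 CPM against 179.8 to 187 CPM; the rise of Nfe2l2 was called with that library included and without it. Txn1 in DR replicate 2 was at 101.5 CPM, less than 1 CPM below the 102.2 to 102.3 CPM of the other DR libraries. In DR replicate 1, Gstk1 was at 23.5 CPM against 19.1 to 19.5 CPM.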

How the results depend on the processing

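Of the 23 called members, 15 kept their call in all 22 alternatives and none changed direction; Gclc, Gpx3, Gstt1, Hmox1, Nfe2l2, Nqo1, Txn2 and Txnrd2 lost theirs in at least 1, Nfe2l2 only at the 0.01 threshold. At that threshold 7 members were higher and 10 lower, and 3937 genes passed against 6290. Without AL replicate 1 and DR replicates 1 and 2 (chosen after seeing the data, for their immune-marker RNA), 6 were higher and 10 lower; fewer libraries were tested there. Leaving out each library gave 10 to 11 members higher, 10 to 13 lower and 5176 to 6402 genes. Upper-quartile and library-size scaling moved the median of all genes by -0.060 and -0.065 and gave 10 higher and 15 lower. With the replicate number as a block, 11 members were higher, 11 lower and 6433 genes passed. Correlations of deviations between same-numbered libraries were 0.039, 0.13, 0.23 and 0.029, and 3 of 8 libraries matched their own number best. These values show no clear pairing by number, but so few libraries cannot settle it. The stricter filter removed Gpx3, Gsta3, Gsta4 and Tbxas1, which have no value there.

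Direction turned in 14 members, none of them called; the cause was not tested. Under upper-quartile scaling these were Gsta3 (-0.052), Gstm5 (-0.039), Gsto1 (-0.0076), Gstt3 (-0.023), Prdx5 (-0.055), Sod2 (-0.016) and Txnrd1 (-0.024), and under library-size scaling Gsta3 (-0.064), Gstm5 (-0.046), Gstt3 (-0.026), Prdx5 (-0.059), Sod2 (-0.019) and Txnrd1 (-0.040). With limma-voom it was Prdx5 (-0.0079), and with quality weights Gsta3 (-0.10) and Txnrd1 (-0.0048). With the replicate block, Gsta3 (-0.16), Prdx6-ps1 (0.0048) and Txnrd1 (-0.19) turned. Without DR replicates 1 and 2 these were Gpx1 (0.0072), Gsta3 (-0.025), Gstm7 (-0.031), Prdx6-ps1 (0.21), Prdx6-ps2 (0.064), Srxn1 (-0.025) and Txnrd1 (-0.040). Without AL replicate 1 as well, they were Gsta3 (-0.031), Gstm7 (-0.14), Prdx6-ps1 (0.18), Prdx6-ps2 (0.096), Srxn1 (-0.048) and Txnrd1 (-0.14). Leaving out each library gave -0.11 to 0.037 for Gclm, -0.16 to 0.013 for Gpx1, -0.15 to 0.19 for Gsta3, -0.051 to 0.11 for Gstm5, -0.042 to 0.19 for Gsto1, -0.27 to 0.11 for Gsto2, -0.035 to 0.088 for Gstt3, -0.13 to 0.093 for Prdx5, -0.23 to 0.076 for Prdx6-ps1, -0.042 to 0.16 for Sod2, -0.13 to 0.35 for Srxn1 and -0.30 to 0.38 for Txnrd1.

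Depth limits members with few reads per library, among them Gpx3, Gsta3, Gsta4 and Prdx6-ps2. The labels give no batch, so no fit within batches was possible.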
